A study of Mus musculus with 14 samples.

Results

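The arrays described here compare repeatedly activated murine Th1 cells that had received Antagomir-31 with cells that had received the control Antagomir-SCR, at the early times of 36 h and 48 h after treatment. They were chosen by the labelled time point alone, which gave 8 of the 14 arrays of the series: 4 with Antagomir-31 and 4 with Antagomir-SCR, 2 of each at each time. The other 6 arrays, 3 per treatment at 72 h, entered only where a later time is named. Naive CD4+ CD62Lhi T cells came from spleens and lymph nodes of OT-II mice, which carry a T cell receptor transgene for an ovalbumin peptide, aged 6 to 10 weeks. They were driven to the Th1 fate with IL-12 and an antibody to IL-4 and stimulated again and again with peptide and antigen-presenting cells, which gave the Th1 rep cells. After the fourth stimulation both groups were held for 1.5 h in serum-free medium with 1 µM of their antagomir and then reactivated on plate-bound antibodies to CD3 and CD28 at 3 µg/ml each, with IL-12, anti-IL-4 and IL-2. Both antagomirs were 2′-O-methylated oligonucleotides with a cholesterol group at the 3′ end, so the control cells carried that modification too. The sources do not tie an array to a mouse or culture, and p-values therefore measure the spread between arrays, which may be technical.

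A microRNA guides the Argonaute complex to messenger RNAs that pair with its seed, the bases near its 5′ end, and the complex then represses translation or speeds the decay of the message. An antagomir pairs with the mature microRNA and takes it out of use, so that direct targets would be expected to be released while indirect changes follow later. MiR-31 is best known from tumours, where it bears on cell adhesion and migration. The mature mouse sequence is shown because the antagomir was directed against it, with the seed, bases 2 to 8, in capitals. It lies on the minus strand of chromosome 4, chr4:88910614-88910635 in GRCm38.p6, and is taken from RefSeq. No other mature sequence among the 1738 in that table shares its seed, and the messenger RNA match to the seed reads TCTTGCC in DNA letters.
mmu-miR-31-5p: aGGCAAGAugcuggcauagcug

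The cells carried the transcripts of their label on all 8 early arrays. The intensity of Cd3g, a chain of the T cell receptor complex, was 2687 to 2901, that of Tbx21, the master regulator of Th1 cells, was 944 to 1243, and that of Ifng, the signature cytokine, was 15182 to 17166. That of Cd4 was 147 to 191, and the chemokine receptor Cxcr3, at 44.4 to 58.3, passed the filter on dim genes. The B cell gene Ms4a1 (9.14 to 19.9), the macrophage gene Adgre1 (13.6 to 16.7), the Treg factor Foxp3 (6.52 to 8.83) and the Th2 cytokine Il4 (9.79 to 13.5) did not pass it. Csf1r (63.7 to 74.0) and Cd14 (50.5 to 68.4) of the macrophage and monocyte list and Cd8a (26.9 to 40) did pass. Of the genes on the array, 3 of 9 B cell, 4 of 10 macrophage and monocyte and 4 of 8 CD8 T and NK cell genes passed. So did 7 of 8 Treg and 3 of 6 Th2 and Th17 genes, so transcripts listed for other cell types were not all below the filter. Of the lists of other cell types, the summed level separated the treatments at both early times for the 8 dendritic cell genes on the array alone, at 1531 to 1581 against 1431 to 1492 at 36 h and 1656 to 1786 against 1598 to 1601 at 48 h, with the higher values in Antagomir-31. Batf3, a transcription factor that activated T cells also express, had a mean of 1414 within that sum, and the part of that list in the results below was not tested. The median intensity of an array was 23.4 to 23.8 at 36 h and 21.8 to 22.1 at 48 h, the 3′ actin control exceeded its 5′ counterpart by 0.32 to 0.43 and 0.37 to 0.41 on the log2 scale, and arrays of a time correlated at 0.997 or above. In bulk RNA, fewer cells of a state and less RNA per cell cannot be told apart.

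The first question was which genes moved with Antagomir-31 in the same way at both early times. A gene was tested as log2 intensity in limma, with time as a covariate, over the brightest 60% of genes on the 8 arrays, 10916 genes. No gene passed an adjusted p of 0.05 (0% of the genes tested), whether the times were pooled or 36 h, 48 h or their difference was read alone. With a variance trend in limma, 12 genes passed in the pooled comparison, among them Ptgs2, Tnf, Atf5 and Ddit4, so the count depends on that setting. At an unadjusted p under 0.05, 370 genes (3.39%) were higher and 412 (3.77%) were lower with Antagomir-31 in the pooled comparison, 535 genes passed that mark at 36 h, 585 at 48 h and 385 for the difference between the times. The median standard error of a pooled log2 fold change was 0.048, so the effects described below are small and were read as values rather than as changes. Another description is that both Antagomir-31 arrays lay on one side of both Antagomir-SCR arrays at both times. This held for 334 genes (3.06%) on the higher side, with a median log2 fold change of 0.12, and for 432 genes (3.96%) on the lower side, with a median of -0.10. Only 24 of the former and 7 of the latter were past 0.25 on the log2 scale. Across all genes, 6031 of 10916 (55.2%) had the same sign at 36 h and 48 h, with Pearson's r = 0.15, which is a description across genes that share arrays. Of the 6031, 2780 were above 0 and 3251 below 0 at both times.

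**Figure D1:**
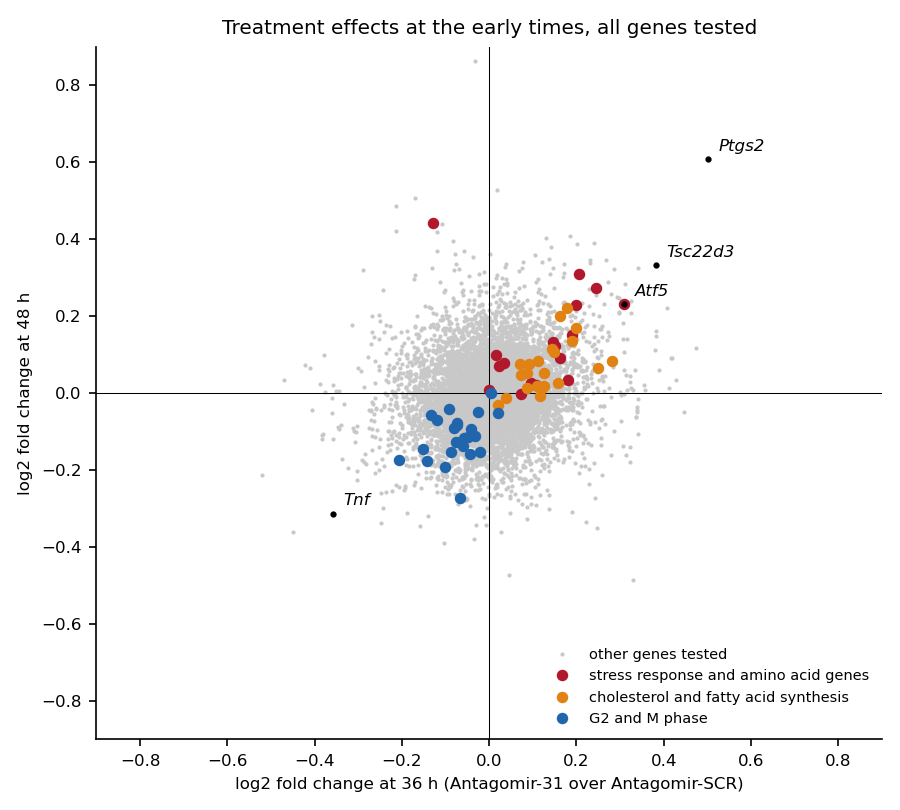
Each point is 1 of the 10916 genes tested, with its log2 fold change of Antagomir-31 over Antagomir-SCR at 36 h on the x axis and at 48 h on the y axis (2 arrays per treatment and time). Colours mark genes of the integrated stress response and amino acid supply, of cholesterol and fatty acid synthesis and of the G2 and M phases. The cloud is nearly round (r = 0.15), the stress response and cholesterol genes lie mostly in the upper right, the G2 and M phase genes in the lower left, and Ptgs2 and Tnf stand at opposite ends.

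The gene with the smallest p was Ptgs2, which codes for the inducible cyclooxygenase of prostaglandin synthesis. Its intensity at 36 h was 90.9 and 83.3 with Antagomir-31 against 58.1 and 65.1 with Antagomir-SCR, and at 48 h it was 57.4 and 62.6 against 42.3 and 36.6. The treatments did not overlap at either time, and the pooled log2 fold change was 0.55 (SE 0.06, n = 4 arrays per treatment, adjusted p = 0.0961). At 72 h the gene did not pass the filter, at 7.11 to 9.05 over both treatments. Tsc22d3, the glucocorticoid-induced leucine zipper that restrains T cell activation, measured 154 and 171 against 129 and 121 at 36 h and 217 and 207 against 178 and 159 at 48 h. Again each Antagomir-31 array lay above both control arrays of its time, and the log2 fold change was 0.36 (SE 0.05, adjusted p = 0.141).

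The 10 genes with the smallest p on the higher side had log2 fold changes of 0.23 to 0.55 and adjusted p-values of 0.0961 to 0.262. The arrays of the treatments were apart at both times for all 10, against 3.06% of all genes. These 10, and the 10 on the lower side below, were picked by p on the same arrays, so such separation was likely from the start. Several of the 10 on the higher side code for transcription factors and stress-induced regulators of growth. Atf5, a transcription factor of the integrated stress response, had 0.27 and Ddit4, an inhibitor of mTORC1 signalling that many stresses induce, had 0.26. Gadd45b, a stress sensor that acts on p38 signalling, had 0.25, and Ndrg1, which hypoxia and differentiation induce, had 0.31. The Krüppel-like factors Klf4, which restrains T cell proliferation, and Klf10, a TGF-beta-induced repressor, had 0.30 and 0.29. Tent5a, a poly(A) polymerase, had 0.27 and P3h1, a prolyl hydroxylase of collagen, had 0.23.

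Among the 10 genes with the smallest p on the lower side, the largest difference was that of Tnf, the proinflammatory cytokine of Th1 cells. It measured 915 and 922 with Antagomir-31 against 1161 and 1194 with Antagomir-SCR at 36 h, and 796 and 700 against 872 and 987 at 48 h. All 4 values with Antagomir-31 lay below the control values of their time, with a log2 fold change of -0.34 (SE 0.05, adjusted p = 0.141), equal to a level 0.792 times that of the control. Ddx39a, an RNA helicase of messenger export and splicing, measured 1524 and 1613 against 1778 and 1849 at 36 h and 1360 and 1336 against 1518 and 1520 at 48 h. It had a log2 fold change of -0.19 (SE 0.04, adjusted p = 0.262). Cav2, a caveolin, had -0.25, Sorl1, a sorting receptor, had -0.22, Timp2, an inhibitor of matrix metalloproteinases, had -0.17 and Ttk, a kinase of the spindle checkpoint, had -0.19. Plpp1 (-0.25), Amotl2 (-0.25), Avp (-0.23) and Mylpf (-0.18) complete the 10 and were dim, at 24.9 to 76.3 on every early array.

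**Figure D2:**
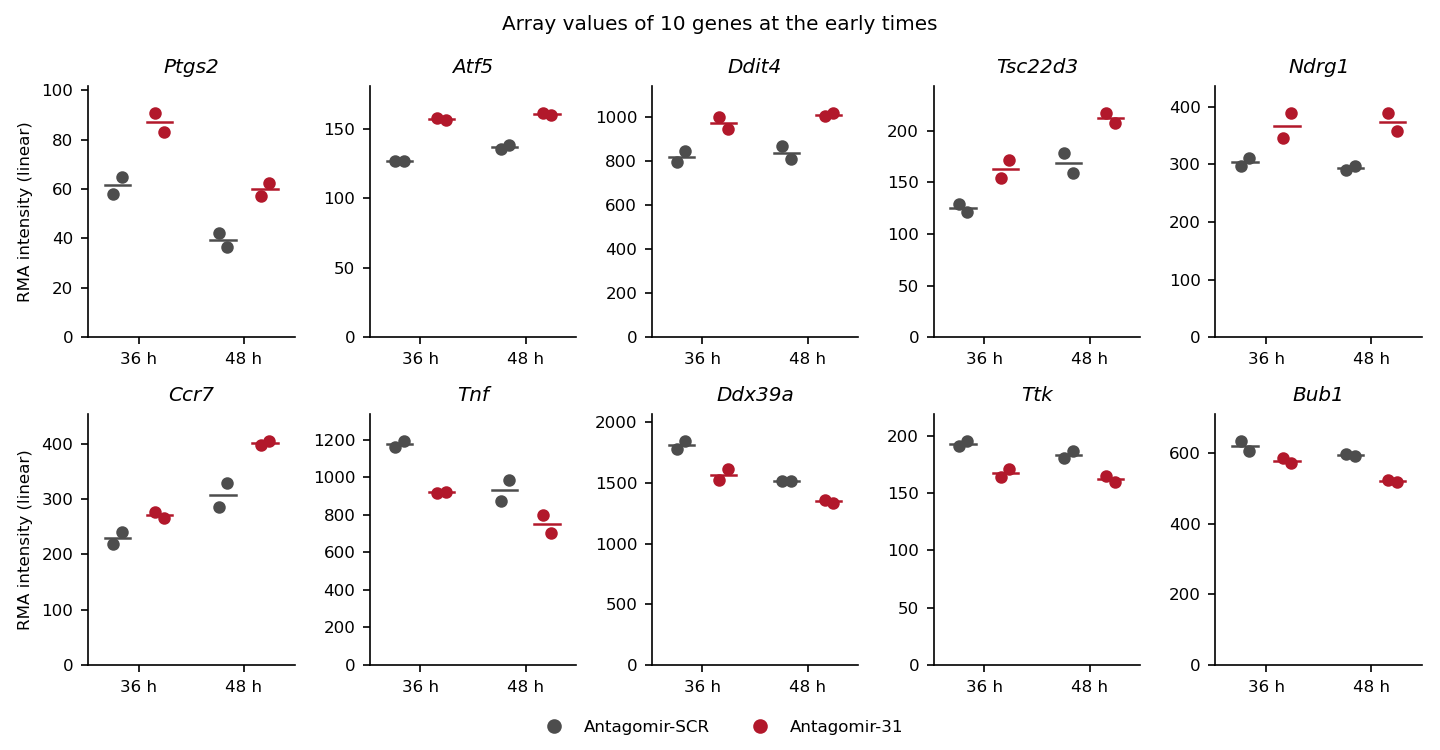
RMA intensity on a linear scale for 10 genes on the 8 early arrays. Points are arrays, bars are means of 2 arrays, and the y axes start at 0. For Ptgs2, Atf5, Ddit4, Tsc22d3, Ndrg1 and Ccr7 both Antagomir-31 arrays lie above both Antagomir-SCR arrays at each time, and for Tnf, Ddx39a, Ttk and Bub1 they lie below them.

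The integrated stress response couples a shortage of amino acids or haem, viral RNA or misfolded protein to the translation of ATF4, which with C/EBP partners switches on amino acid transporters and synthesis enzymes. This list and the other gene lists below were chosen with earlier results of these data known. Their one-sided counts are therefore descriptions and not tests. All 17 members of the stress response list passed the filter on dim genes. In the pooled comparison 17 of 17 were above 0, against 47.1% of all genes tested, with a median log2 fold change of 0.13 against -0.004 for all genes. At 36 h and at 48 h alike 14 of the 17 were above 0, against 2780 of all 10916 genes. At an unadjusted p under 0.05, 8 of 17 (47.1%) were higher and 0 lower, where the background was 3.39% and 3.77%. Arrays were apart on the higher side at both times for 7 members, against 3.06% of all genes, and no member passed after adjustment. Atf5 measured 157 and 156 against 127 and 126 at 36 h and 161 and 159 against 135 and 138 at 48 h, with almost no spread within a group. Ddit4 measured 999 and 945 against 795 and 845 at 36 h and 1004 and 1019 against 867 and 808 at 48 h. Vldlr, the lipoprotein receptor, which ATF4 induces, had 0.26 (SE 0.05) and Nupr1, a stress-induced chromatin protein, had 0.21 (SE 0.06). The enzymes and transporters were nearer to 0: Shmt2, the mitochondrial serine hydroxymethyltransferase, had 0.14, as had Slc3a2, the heavy chain of the amino acid transporter. The light chain Slc7a5 had 0.13 and the cystine transporter Slc7a11 had 0.11. The list's median log2 difference from the mean of the 4 arrays of a time was 0.056 and 0.071 with Antagomir-31 at 36 h and 0.059 and 0.058 at 48 h. In the controls it was -0.039 and -0.052 at 36 h, and -0.086 and -0.007 at 48 h.

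Promoter windows of 4 of these genes are shown so that members that lay on the same side can be compared by sequence. The composite element of ATF4 and C/EBP was searched as TGATGNAA on both strands of the 250 bases before each RefSeq gene start (GRCm38.p6). It was found in 4 of 18 promoters of 15 list genes (22.2%), against 3.45% of all 32851 promoters. Among the lists described below, it was in 2 of 22 promoters of the S phase list (9.09%), whose genes lay on the lower side. It was in 1 of 19 promoters of the cholesterol list and in 0 of the G2 and M phase and glycolysis lists. The match, a description and not a shown binding site, is in capitals in each window, which is written 5′ to 3′ on the strand of the gene.
Asns (chr6:7693210-7693248, minus strand): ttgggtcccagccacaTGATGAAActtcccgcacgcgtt
Nupr1 (chr7:126625557-126625596, minus strand): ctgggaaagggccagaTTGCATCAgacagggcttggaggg
Slc7a11 (chr3:50443637-50443676, minus strand): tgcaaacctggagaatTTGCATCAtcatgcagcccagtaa
Vldlr (chr19:27216804-27216843, plus strand): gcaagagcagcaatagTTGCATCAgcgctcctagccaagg
Of these 4 genes, Vldlr and Nupr1 were among those with an unadjusted p under 0.05, while Asns, the asparagine synthetase whose promoter holds a well-known element, had a log2 fold change of only 0.06.

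The list of the unfolded protein and heat shock response, which shares the signal to ATF4 but also holds the chaperones of the endoplasmic reticulum, was not on one side. Of its 20 members 7 were above 0 (median -0.02). Atf3 (0.23), Trib3 (0.22) and Ddit3 (0.20), which code for a repressor, a pseudokinase and a factor of the late stress programme and are themselves targets of ATF4, were higher with Antagomir-31 on all arrays of both times. Atf3 measured 703 and 691 against 546 and 575 at 36 h and 758 and 740 against 673 and 684 at 48 h. Pdia4, a disulfide isomerase of the endoplasmic reticulum, had -0.14, with arrays apart on the lower side at both times. In all, 4 members were higher and 2 lower at an unadjusted p under 0.05, shares of 20.0% and 10.0% against 3.39% and 3.77%.

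The enzymes of cholesterol and fatty acid synthesis answer to SREBP factors, which are cut free and enter the nucleus when membrane sterol is low. All 22 members on the array passed the filter, and 21 of 22 were above 0 in the pooled comparison, with a median log2 fold change of 0.09. At both times alike 19 were above 0, against 2780 of all 10916 genes. At an unadjusted p under 0.05, 8 members (36.4%) were higher and 0 lower, against 3.39% and 3.77% of all genes, 7 had arrays apart on the higher side, against 3.06% of all genes, and no member passed after adjustment. Lss, which makes lanosterol from squalene epoxide, measured 278 and 296 against 254 and 252 at 36 h and 338 and 367 against 316 and 289 at 48 h, a log2 fold change of 0.20 (SE 0.05, adjusted p = 0.376). Hmgcs1, the synthase that makes HMG-CoA, measured 2485 and 2388 against 2200 and 2209 at 36 h and 2314 and 2440 against 2297 and 2098 at 48 h, with 0.13 (SE 0.04). Nsdhl, a later enzyme of the pathway, and Mvd, the mevalonate decarboxylase, had 0.18 each. The treatments were clearest at 36 h, where the median of the list was 0.12, while at 48 h it was 0.06. There the median by array was -0.025 and 0.099 with Antagomir-31 against -0.015 and -0.062 in the controls, so the treatments overlapped. The transcription factors themselves were closer to 0, with 0.07 for Srebf2 and -0.01 for Srebf1.

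A sterol regulatory element, searched as TCACNCCAC on both strands, was found in 1 of 19 promoters of 15 genes of the list, that of Hmgcs1, against 1.05% of all promoters, and the CCAAT box that often stands beside such elements was in 15 of the 19 (78.9%), against 33.8% of all promoters. Neither was particular to this list. The element was also in 1 of 22 promoters of the S phase list and 1 of 25 of the glycolysis list, and CCAAT was in 68.2% of the S phase promoters. The Hmgcs1 window is shown with the element in capitals.
Hmgcs1 (chr13:119690198-119690238, plus strand): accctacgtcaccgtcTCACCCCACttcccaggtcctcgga

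Genes of the cell cycle lay on the other side. Of 24 genes of the G2 and M phases tested, 23 were below 0, against 5779 of all 10916 genes, with a median log2 fold change of -0.09. At an unadjusted p under 0.05, 9 (37.5%) were lower and 0 higher, against 3.77% of all genes on the lower side. Below 0 at both times were 22 of the 24, against 3251 of all 10916 genes. No member passed after adjustment, and 8 had arrays apart on the lower side at both times, against 3.96% of all genes. Bub1, a kinase of the spindle checkpoint, measured 587 and 570 with Antagomir-31 against 635 and 606 at 36 h and 523 and 518 against 597 and 591 at 48 h. Its log2 fold change was -0.15 (SE 0.04, adjusted p = 0.462). Ttk, its partner in that checkpoint, measured 164 and 171 against 191 and 196 at 36 h and 165 and 160 against 180 and 186 at 48 h. Hmmr, a spindle protein, had -0.15 and the mitotic kinase Aurka -0.12. Genes of DNA replication were also below 0, with values nearer to it. All 23 genes tested were below 0 in the pooled comparison (median -0.05), and 18 of them were below 0 at both times, against 5779 and 3251 of all 10916 genes. At an unadjusted p under 0.05, 5 (21.7%) were lower, against 3.77% of all genes. They were Gins1 (-0.16), Ung (-0.12), Prim1 (-0.10) and Rrm1 (-0.10), which build or supply the replication fork or repair its uracil, and Mcm5, a subunit of the replicative helicase, named after its value was seen, with -0.09. The median of the G2 and M phase list lay between -0.065 and -0.007 on the 4 Antagomir-31 arrays and between 0.016 and 0.063 on the 4 control arrays.

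Promoters of genes of the late cell cycle commonly hold CCAAT boxes and the cell cycle gene homology region. In 22 promoters of 21 genes of the G2 and M phase list, CCAAT was found on either strand in 20 (90.9%), against 33.8% of all promoters. TTTGAA, the core of the homology region, was found in 9 (40.9%), against 15.99%. CCAAT was also in 78.9% of the promoters of the cholesterol list, which lay on the higher side, so it did not mark the lower side. The windows below have the CCAAT match in capitals for Ttk and Bub1, the checkpoint kinases named above, and TTTGAA for Ccnb2, the mitotic cyclin, whose log2 fold change was -0.10.
Ttk (chr9:83834645-83834681, plus strand): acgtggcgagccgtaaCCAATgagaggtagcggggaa
Bub1 (chr2:127831881-127831917, minus strand): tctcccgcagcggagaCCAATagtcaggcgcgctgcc
Ccnb2 (chr9:70421700-70421737, minus strand): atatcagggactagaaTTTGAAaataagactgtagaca

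Genes that FOXO1 keeps on in resting T cells, among them receptors that send cells to lymph nodes, were above 0 in 13 of 13 tested (median 0.08), where 47.1% of all genes were, and 3 (23.1%) were higher at an unadjusted p under 0.05, against 3.39% of all genes. At 36 h and at 48 h alike 10 of the 13 were above 0, against 2780 of all 10916 genes. Without the Antagomir-SCR array numbered 2 at 36 h the median was 0.05. Ccr7, the receptor that guides T cells into lymph nodes, measured 277 and 266 against 220 and 240 at 36 h and 398 and 406 against 286 and 329 at 48 h. The log2 fold change was 0.32 (SE 0.06, adjusted p = 0.262). Satb1, a chromatin organiser of T cells, had 0.16 and Cdkn1b, an inhibitor of cell cycle kinases, had 0.09, while Il7r, the receptor for the survival cytokine IL-7, had 0.08 with an unadjusted p = 0.102. Of 19 genes of apoptosis and p53 signalling, 16 were above 0 (13 of them at both times) and 3 (15.8%) were higher at an unadjusted p under 0.05, against the same shares of all genes. These were Trp53inp1, a p53-induced autophagy factor (0.27), the survival gene Bcl2 (0.12) and the cell cycle inhibitor Cdkn1a (0.10). Trp53inp1 measured 538 and 488 against 410 and 435 at 36 h and 418 and 381 against 308 and 361 at 48 h.

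Genes of glycolysis and hypoxia were above 0 in 19 of 20 tested, but with a median of 0.05, and 5 (25%) were higher at an unadjusted p under 0.05, against 47.1% and 3.39% of all genes. At both times alike 16 of the 20 were above 0, against 2780 of all 10916 genes. Ndrg1 had the clearest values of the list, at 345 and 389 against 298 and 311 at 36 h and 389 and 359 against 291 and 298 at 48 h (log2 fold change 0.31, SE 0.05, adjusted p = 0.147). Bnip3, a hypoxia-induced factor of mitophagy, had 0.16, Pfkl, the liver phosphofructokinase, had 0.14 and Slc16a3, a lactate exporter, had 0.10. For Bnip3 the treatments overlapped at 36 h, at 1297 and 1420 against 1307 and 1250, and were apart at 48 h, at 1141 and 1225 against 1004 and 993. ACGTG, the core of the hypoxia response element, was found on either strand in 14 of 25 promoters of 18 genes of the list (56.0%), against 16.6% of all promoters. The share describes the list and not the genes with the larger values. Matches were found for Bnip3 and Slc16a3, but also for Ldha, Pgk1 and Egln3, each with a log2 fold change of 0.01. No match was found for Ndrg1 or Pfkl, which may lie outside those 18 genes. Lists of respiration and protein synthesis gave no such one-sided count. For oxidative phosphorylation 8 of 22 genes tested were above 0 (median -0.01), and for ribosome biogenesis 13 of 20 (median 0.02), with 0 members of either at an unadjusted p under 0.05.

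**Figure D3:**
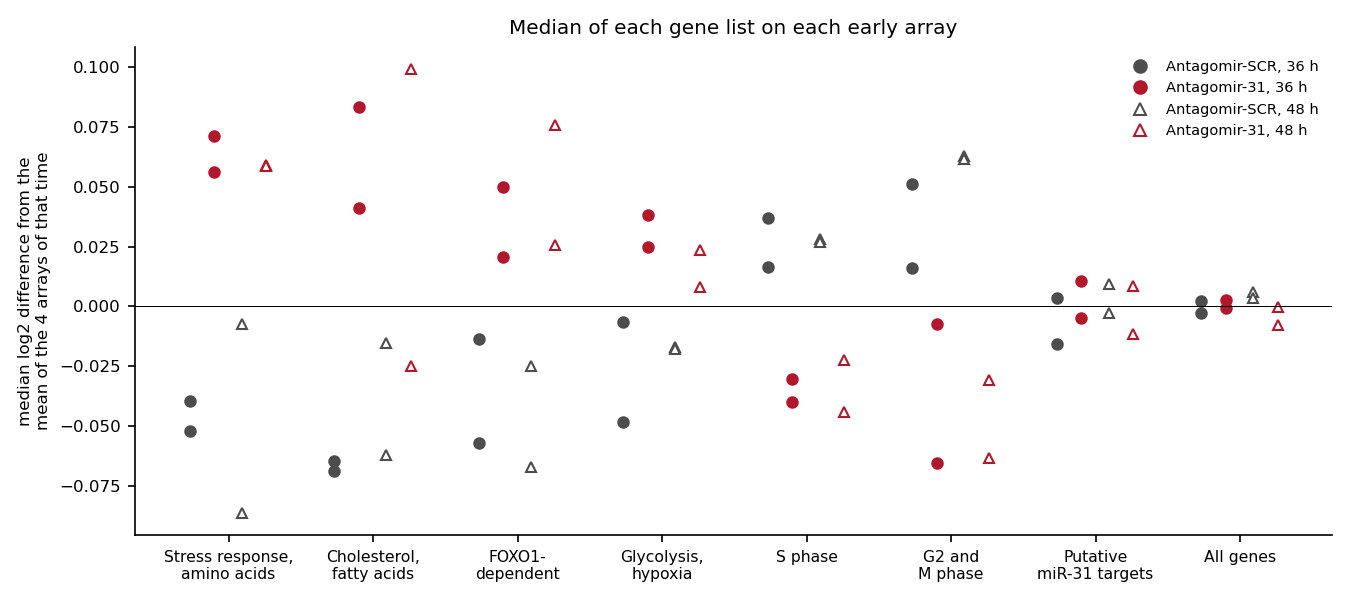
For each gene list and each of the 8 early arrays, the median over the list's genes of the log2 difference from the mean of the 4 arrays of that time. Circles are 36 h and triangles 48 h. The treatments do not overlap at either time for the stress response, FOXO1, glycolysis, S phase and G2 and M phase lists, they overlap at 48 h for the cholesterol list, and the putative miR-31 targets and all genes stay within 0.016 of 0.

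In the effector programme that defines Th1 cells, 8 of 20 genes tested were above 0 (median -0.01), against 47.1% of all genes. Tnf was the only one at an unadjusted p under 0.05 (5.0% lower, against 3.77%). Arrays were apart at both times on the lower side in 4 of the 20 and on the higher side in 2, against 3.96% and 3.06% of all genes. Among the secreted cytokines, Csf2, which codes for GM-CSF, had -0.12, and Il24, a cytokine of the IL-10 family, had 0.30 (SE 0.08). Of the genes that T cell receptor signals induce within hours, the AP-1 subunit Jun had 0.22, whereas the zinc finger factors Egr1 and Egr2 had -0.18 and -0.16. Of 10 homing and chemokine receptors tested, Ccr7 and P2ry10, a lysophosphatidylserine receptor, which had 0.16, were higher and Ccr2, a receptor for inflammatory chemokines, was lower (-0.24), all at an unadjusted p under 0.05. These shares of 20.0% and 10.0% stand against 3.39% and 3.77% of all genes. Ccr2 measured 265 and 268 against 321 and 364 at 36 h and 422 and 392 against 443 and 441 at 48 h. Ctla4, an inhibitory receptor, had 0.22 (SE 0.06). In the TGF-beta list 14 of 16 were above 0 (10 of them at both times, median 0.05), led by the receptor Tgfbr1 (0.23) and the activin subunit Inhba (0.12). Of all genes, 47.1% were above 0 and 2780 of 10916 were so at both times.

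The design also asks about direct targets of miR-31. Putative targets were taken from a list of 421 genes, of which 394 were found on the array and 296 passed the filter. Their median log2 fold change was 0.001 against -0.004 for all genes, 51.4% were above 0 against 47.1%, and 9 (3.04%) were higher and 9 (3.04%) lower at an unadjusted p under 0.05, against 3.39% and 3.77%. Of the subset whose binding site was kept in most of the expressed messages, a list of 182 genes that is not the whole subset was used here. From it 167 genes were tested, 89 were above 0 (median 0.002), and 6 were higher and 3 lower at that mark. The median of the whole list by array varied with an SD of 0.012 within groups, more than that difference. Stk40, a kinase, had the smallest p of the list and measured 278 and 299 against 280 and 253 at 36 h and 295 and 291 against 246 and 250 at 48 h. The treatments overlapped at 36 h, and the log2 fold change was 0.18 (SE 0.05, adjusted p = 0.478). Ak4, an adenylate kinase of mitochondria, had 0.15, Paqr8, a progestin receptor, had -0.17 and Jazf1, a zinc finger protein, had -0.13. A further list holds 9 target candidates picked for qRT-PCR, a choice made with these cells in view and no independent evidence of a direction. Of the 9, 7 were above 0 (median 0.04), and beside Stk40 only Ppp3ca, the catalytic subunit of calcineurin, had an unadjusted p under 0.05, with 0.12 (SE 0.05). Its arrays overlapped at 36 h (220 and 212 against 208 and 217) and were apart at 48 h (228 and 224 against 199 and 191). Ablim1, which binds actin, had 0.09, Lpp, a focal adhesion protein, 0.05, Ywhae, an adaptor of the 14-3-3 family, 0.04, Ppp2r2a, a phosphatase subunit, 0.03, and Cd28, the costimulatory receptor, 0.02. Eif4ebp2, an inhibitor of translation initiation, had -0.03 and Lats2, a kinase of the Hippo pathway, -0.07.

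Lists of the cytoskeleton and of adhesion had medians close to 0 early. Of 23 genes of actin and the Arp2/3 complex tested 18 were above 0 (15 of them at both times), against 47.1% and 2780 of all 10916 genes, but the median was 0.02. Ezr, which ties actin to the membrane, was the only one at an unadjusted p under 0.05. It measured 1901 and 1859 against 1768 and 1743 at 36 h and 2030 and 1991 against 1797 and 1777 at 48 h, with a log2 fold change of 0.13 (SE 0.03, adjusted p = 0.472). Of 18 integrins and their adaptors, 9 were above 0 and none had an unadjusted p under 0.05.

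Whether an effect differed between 36 h and 48 h was tested as an interaction, and no gene passed. The smallest p-values belonged to dim genes such as Grhl1, an epithelial transcription factor, with 44.6 and 40.0 against 33.3 and 33.9 at 36 h and 36.0 and 27.1 against 42.9 and 44.6 at 48 h. Zfp709, a zinc finger gene, differed the other way, at 45.1 and 45.9 against 44.0 and 46.0 at 36 h and 32.9 and 33.8 against 23.1 and 23.1 at 48 h. Read at 48 h alone, the smallest adjusted p was 0.0636 and belonged to Pik3cd, the leukocyte subunit of phosphoinositide 3-kinase. It measured 4503 and 4306 against 4279 and 4070 at 36 h and 4719 and 4471 against 3619 and 3630 at 48 h.

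The 72 h arrays did not enter the early fit, and the genes of smallest early p were read in them at that later time. Of 10916 genes tested over all 14 arrays, 50 (0.458%) were higher and 65 (0.595%) were lower at 72 h after adjustment. Of the 10 genes with the smallest early p on the higher side, 9 were bright enough for that fit, 7 were again above 0 and 2 were higher at 72 h after adjustment. Atf5 measured 129, 122 and 123 with Antagomir-31 against 109, 110 and 106, a log2 fold change of 0.20 (SE 0.04, n = 3 per treatment, adjusted p = 0.0297). Ndrg1 measured 238, 247 and 195 against 169, 173 and 155, a log2 fold change of 0.45 (SE 0.08, adjusted p = 0.0277). Of the 9 genes on the lower side that could be read, 4 were again below 0 and none passed. Read the other way, 41 of the 64 genes lower at 72 h (64.1%) were above 0 early, against 47.1% of all genes. Of these 64, 10 (15.6%) were higher and 5 (7.81%) lower early at an unadjusted p under 0.05, against 3.39% and 3.77%. Of the 49 genes higher at 72 h, 27 (55.1%) were above 0 early, with 5 (10.2%) higher and 2 (4.08%) lower at that mark. Among all 113 genes called at 72 h and tested early, 50 had the sign of 72 h and 63 the opposite sign. The median early log2 fold change was 0.01 for the 49 higher and 0.03 for the 64 lower genes.

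Some effects differed between the early times and 72 h. The difference of the 72 h effect from the mean early effect passed the test in 24 genes (0.22%), of which Gzmg was too dim early to be tested there. Of the other 23, 17 were above 0 early and below 0 at 72 h and 6 had a higher effect at 72 h. Only 11 of these 17 had an unadjusted p under 0.05 in the early limma fit, so the early side of the others is uncertain. Il24 measured 219 and 246 against 170 and 213 at 36 h, 238 and 260 against 187 and 212 at 48 h, and then 245, 272 and 297 against 362, 440 and 444 at 72 h. Its difference was -0.92 (SE 0.14, adjusted p = 0.0272). Ctla4 (difference -0.51, adjusted p = 0.0272), Ccr7 (-0.51, adjusted p = 0.0322) and Ddit4 (-0.44, adjusted p = 0.0272) went the same way. Ccr7 measured 850, 828 and 903 against 1003, 1030 and 914 at 72 h. For Egr1 the difference was 0.66, and the gene measured 1270 to 1791 on the early arrays and 41.7, 43.7 and 41.7 against 28.2, 29.3 and 33.6 at 72 h. The granzyme genes Gzmc, Gzmd and Gzme, cytolytic proteases, had effects of -0.01, -0.02 and 0.07 early and of 0.54, 0.69 and 0.80 at 72 h. The cytokine gene Lif and Ncf1, which codes for part of the phagocyte oxidase, had effects of 0.07 and 0.10 early and of -0.73 and -0.57 at 72 h. The number of such genes was unstable: it was 2 without the Antagomir-31 array numbered 2 at 72 h and 2 without the Antagomir-SCR array numbered 3 of that time, and 4 to 15 without any of 9 others, and Lif and Gzmg passed whichever array was left out.

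**Figure D4:**
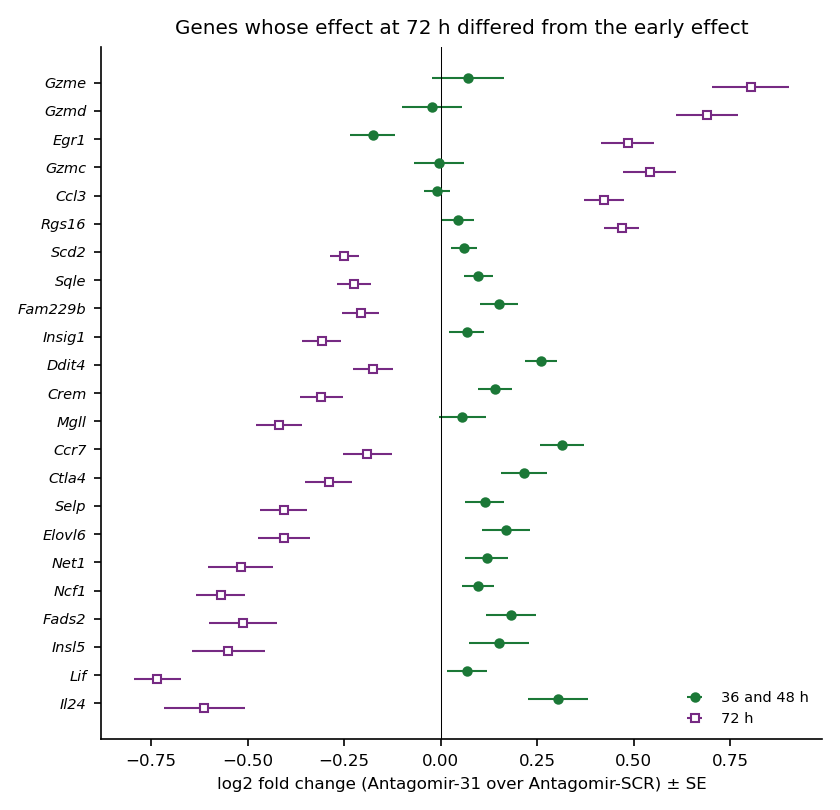
The 23 genes tested early whose effect at 72 h differed from the early effect at an adjusted p under 0.05. Circles are the pooled log2 fold changes at 36 h and 48 h (4 arrays per treatment), squares those at 72 h (3 arrays per treatment), and bars are standard errors. In 17 genes the circle lies right of 0 and the square left of it, with the widest gap for Il24, and 11 of these 17 had an early unadjusted p under 0.05.

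The cholesterol list as a whole lay on opposite sides at the 2 stages. Of its 22 genes 21 were above 0 early, and at 72 h 21 were below 0, with a median of -0.18. At 72 h 6 of them were lower with Antagomir-31 after adjustment, against 0.595% of all genes, and for 4 the difference between the stages passed, against 0.22%. Those 4 were Fads2, a fatty acid desaturase, and, named after their values were seen, the desaturase Scd2, the sterol sensor partner Insig1 and the squalene epoxidase Sqle. Fads2 measured 116 and 106 against 94.0 and 88.7 at 36 h, 122 and 142 against 124 and 125 at 48 h, and 88.4, 79.4 and 93.7 against 113, 142 and 120 at 72 h, so that the early separation came from 36 h. Its difference was -0.69 (SE 0.12, adjusted p = 0.0323). The differences were -0.31 for Scd2, -0.38 for Insig1 and -0.32 for Sqle, and with single arrays left out each of the 4 passed in only 1 to 3 of 14 fits. The stress response and cell cycle lists lay near 0 at 72 h, where their medians were 0.01 for the stress response, 0.01 for the S phase and -0.02 for the G2 and M phases, and the difference from the early effect passed in 1, 0 and 0 of their genes.

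**Figure D5:**
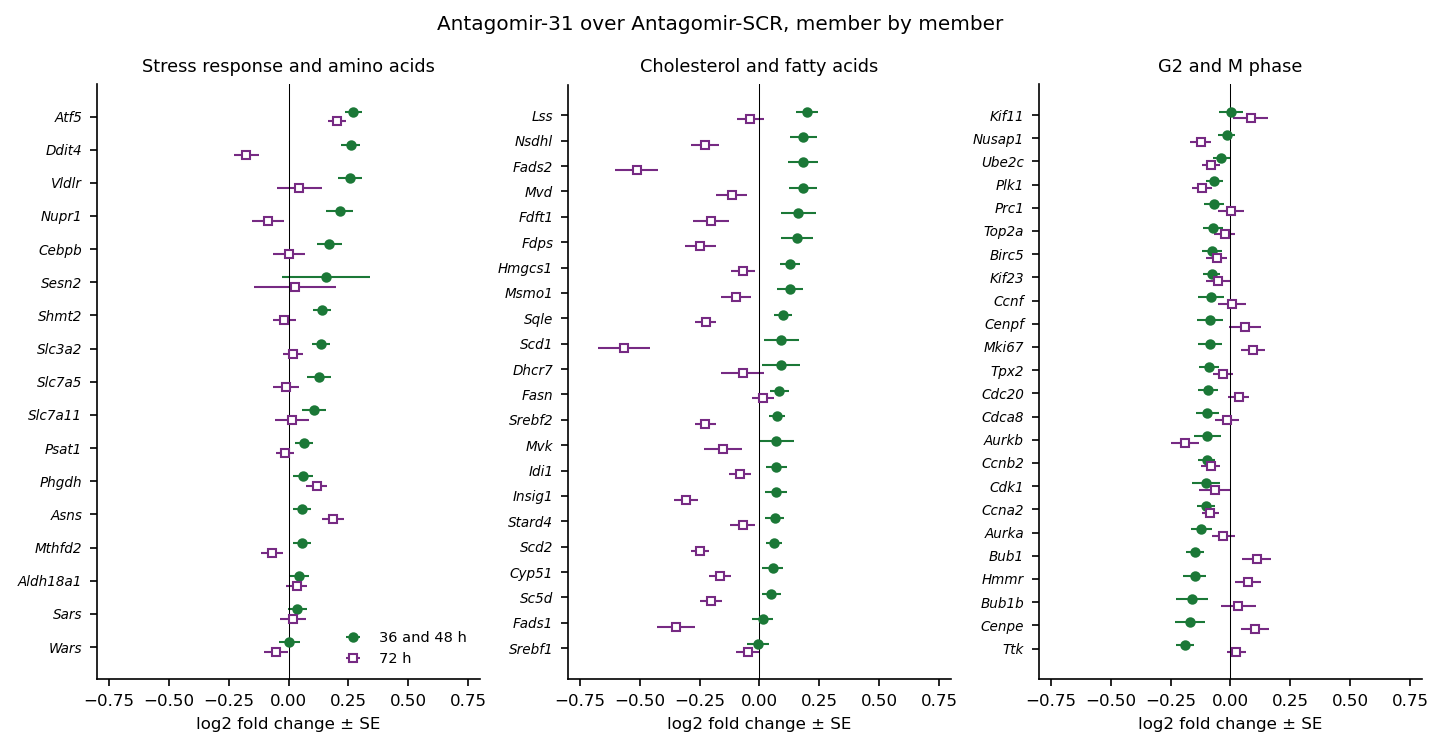
Log2 fold change of Antagomir-31 over Antagomir-SCR for every tested member of 3 gene lists, early (circles, pooled over 36 h and 48 h) and at 72 h (squares), with standard errors. Stress response genes lie right of 0 early and around 0 at 72 h, cholesterol genes change sides, and G2 and M phase genes lie left of 0 early and around 0 at 72 h. Sesn2 has the widest error bar (SE 0.18 early).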

How the data were processed

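Total RNA of 14 samples of Th1 rep cells was hybridised to Affymetrix Mouse 430 2.0 arrays. The authors normalized the signals by RMA with the affy package, and their notes also name GCOS (versions not given in the sources used here). Values were deposited as linear intensities, and log2 was taken from them here. Distributions were alike within a time and differed between times, so no level is compared between times. Of 45101 probe sets, 34945 carried 1 gene symbol, 932 several and 9160 none, and 64 were controls. Those with 1 symbol (34741 matched to RefSeq by Entrez identifier) gave 18193 genes. The highest probe set on each array stood for the 9010 genes with more than 1, as in the study's gene set parameters, and the brightest 60% by mean log2 were tested.

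The tests used limma 3.58.1 under R 4.3.3 (lmFit and eBayes, Benjamini-Hochberg adjustment over all genes tested): the early effect over 8 arrays with time as a covariate, the effects at 36 h and 48 h and their difference over the 4 early groups, and the 72 h effect and its difference from the early mean over all 14 arrays. The fit was tested on simulated data. The number of arrays limits the precision. Gene lists are described by counts and medians beside all genes, since the comparison, the members and the lists were chosen with earlier results of these data known. The text names, by rule, the 10 genes of smallest early p in each direction, the qRT-PCR candidates (with further genes that are not reported here), up to 4 genes of smallest p per list, 10 putative targets, up to 10 called genes per direction at 72 h and 5 genes of smallest p for each difference between times. Cell markers and genes with printed promoters were named for what they are, and any other list member was named after its values were seen. Alternatives were the filter, the collapse of probe sets, probe sets open to cross-hybridization, array centring, a variance trend, a replicate block, all arrays in 1 fit and leaving out each array.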

Additional observations from a re-analysis of the deposited data

Results flagged for a closer look

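For 15 of the named genes the 72 h effect was not that of the early times (mean of 36 h and 48 h) by limma's test of that difference (adjusted p under 0.05, values on the log2 scale). The effect was lower at 72 h by these differences: Il24 -0.92, Lif -0.80, Insl5 -0.70, Fads2 -0.69, Ncf1 -0.67, Net1 -0.64, Ctla4 -0.51, Ccr7 -0.51 and Ddit4 -0.44. It was higher at 72 h for the granzyme genes Gzme (0.73), Gzmd (0.71) and Gzmc (0.55), for the transcription factor gene Egr1 (0.66), for the chemokine gene Ccl3 (0.43) and for Rgs16, a regulator of G protein signalling (0.42). Of these 15 genes, Lif alone passed with each single array left out.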

How the results depend on the processing

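No gene was called early under the other filters, collapses, centrings or the replicate block, nor with any 1 array left out, but 12 genes were called in the pooled comparison with a variance trend, 1 at 48 h with that trend (Pik3cd) and 1 with all 14 arrays in 1 fit (Atf5). The 24 genes whose effect at 72 h differed from the early effect became 5 with no filter, 59 with a mean log2 of at least 6, 102 with a trend and 4 with the replicate block (Lif, Ctla4, Il24 and Net1). With 1 array left out, that count ranged from 2 to 29. It was 2, 4, 6, 12, 15 and 9 without the Antagomir-31 arrays 72 h replicate 2, 72 h replicate 3, 36 h replicate 1, 36 h replicate 2, 48 h replicate 1 and 48 h replicate 2, and 7, 2, 12, 11 and 14 without the Antagomir-SCR arrays 72 h replicate 2, 72 h replicate 3, 36 h replicate 1, 48 h replicate 1 and 48 h replicate 2. The 766 genes with arrays apart at both times became 1278 to 1534 with 1 array left out, where fewer arrays have to be apart. The median of the stress response list ranged from 0.096 (without Antagomir-SCR 48 h replicate 1) to 0.157 (without Antagomir-SCR 48 h replicate 2), that of the FOXO1 list from 0.052 (without Antagomir-SCR 36 h replicate 2) to 0.090 and that of the cholesterol list from 0.065 to 0.119, and no list median changed sign except that of the putative targets (-0.004 to 0.005). The alternatives for the medians of the gene lists were chosen after seeing the data. None of the 93 named genes with an unadjusted early p under 0.05 changed direction in any alternative. They were chosen by that p on the same arrays, so a change of direction was unlikely from the start. An unadjusted p under 0.05 was lost in 114 of their fits with 1 array left out and kept in 630. Under the other alternatives it was lost in 37 and kept in 689. The numbers were not taken as pairs: deviations of same-numbered arrays of the 2 treatments correlated at 0.07 at 36 h, at -0.17 at 48 h and between -0.07 and 0.06 at 72 h, and those of the same number at 36 h and 48 h at 0.19 for Antagomir-31 and -0.09 for Antagomir-SCR. With the replicate block, 0 genes were called early, and with the pairing crossed at 48 h, added after seeing the data, 0 as well. The cause of these differences was not tested.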
